A study of Mus musculus with 10 samples.

Results

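The genes studied here mark cytotoxic T cells and natural killer (NK) cells, and 10 of them were followed in 10 mouse ovaries: Gzma, Gzmb, Gzmk, Prf1, Nkg7, Klrb1c, Klrd1, Ncr1, Eomes and Tbx21. They were taken by symbol from the table of read counts on 55487 genes, and all 10 were found there. The ovaries came from C57BL/6J mice in 3 groups, with a library for each ovary. Control was 4 mice aged 8 weeks, Aged was 3 mice aged 11 months by the labels, and Aged+CF was 3 mice of the same labelled age that had been given CEFFE, a cell-free liquid prepared from fat tissue, at 200 μL and 3 μg/μL into the tail vein. Control and Aged mice had saline by the same route, and by the labels every mouse received 10 IU of the gonadotropin PMSG 48 h before collection. The study's methods give the older mice a slightly lower age than the labels do. Comparing Aged with Control asks how the genes differ with age, and comparing Aged+CF with Aged asks how they differ with the fat extract.

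Cytotoxic lymphocytes kill by releasing granules onto a target cell. Perforin opens the target membrane, and granzymes, a family of serine proteases, enter and cleave proteins that lead to cell death. NK cells decide whether to release their granules by summing activating and inhibitory receptors, while cytotoxic T cells use the T cell receptor. Both lineages, with other innate lymphocytes, depend on the T-box transcription factors T-bet and Eomes, and both are found in the ovary.

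Reads were scarce. Between 15761789 and 21318254 reads were counted on genes per ovary, and the 10 genes together held between 61 and 224 of them. Values are given as CPM, counts scaled to library size by edgeR's TMM method, with the mean ± SD over the ovaries of a group. In whole-ovary RNA, fewer cells of a type and less RNA per cell cannot be told apart. Some libraries stood apart in ways that touch these genes. Aged 34 was the highest ovary in summed T cell, B cell, mast cell and pan-leukocyte markers. Markers of oviduct epithelium summed to 389 CPM in Control 33 and 358 CPM in Aged 34, against 28.2 to 92.7 CPM in the other 8 ovaries. Aged 33, the highest ovary for Gzma and Gzmb, had the lowest TMM factor, 0.871, the fewest genes with a count, 25684, 6.03% of its reads on mitochondrial genes against 2.73 to 3.97% elsewhere, and 17.2% in its 50 highest genes against 9.83 to 13.6%. The part of these signs in its values was not tested. Granulosa and oocyte markers of the labelled tissue were counted in all ovaries, but between Control and Aged their levels moved against the members. Oocyte markers summed to 325 to 443 CPM in Control, 92.3, 80.1 and 11.2 CPM in the Aged ovaries 31, 33 and 34, and 124 to 191 CPM in Aged+CF, so Aged 34 was the lowest by far, and 7 of 8 tested were called lower in Aged, or 4 without Control 32 or 34. Granulosa markers summed to 4401 to 6589 CPM in Control, 2965 to 3979 CPM in Aged and 2656 to 4041 CPM in Aged+CF. Between Control and Aged, 0 of 8 were called by edgeR's test and 3 were lower at an unadjusted p. The part of this shift in the members' values was not tested.

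Members called between groups had to reach an adjusted p under 0.05 and a fold change of at least 1.5, in a fit of 18956 genes that passed a filter on low counts. In all, 7 of the 10 genes passed it, and Gzma, Gzmk and Eomes did not. The filter asked for 0.575 CPM in 3 ovaries. No Control ovary reached that level for Gzmb, Prf1 or Klrd1, whereas all 3 Aged ovaries did, so these 3 genes entered the fit largely through the group in which they were high. Counts and medians over the 7 genes are therefore a description of them and no support for a difference. The same holds for the gene lists below. Some of their genes, such as Klrb1b, Cd226, Cd2, Blk and Fcer1a, stayed under 0.575 CPM in every Control ovary.

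The upstream sequences of 3 genes are shown because Gzmb and Tbx21 were called in the comparison with age and Nkg7 had the highest level of the 10. Each is the 250 bases before a RefSeq start site on the gene's own strand (GRCm38.p6), written 5′ to 3′, and capitals mark matches to 4 short motifs on either strand: GTGTGA for T-box factors, TGTGGT for RUNX factors, TGANTCA for AP-1 and AGGAAGT for ETS factors. Gzmb lies at chr14:56262335-56262584 on the minus strand, Tbx21 at chr11:97115332-97115581 on the minus strand and Nkg7 at chr7:43436888-43437137 on the plus strand.
Gzmb: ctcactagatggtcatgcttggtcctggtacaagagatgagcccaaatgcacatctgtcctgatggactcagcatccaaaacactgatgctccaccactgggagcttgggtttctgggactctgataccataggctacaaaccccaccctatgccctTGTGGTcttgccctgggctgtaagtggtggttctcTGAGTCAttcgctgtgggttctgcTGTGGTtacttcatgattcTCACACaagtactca
Tbx21: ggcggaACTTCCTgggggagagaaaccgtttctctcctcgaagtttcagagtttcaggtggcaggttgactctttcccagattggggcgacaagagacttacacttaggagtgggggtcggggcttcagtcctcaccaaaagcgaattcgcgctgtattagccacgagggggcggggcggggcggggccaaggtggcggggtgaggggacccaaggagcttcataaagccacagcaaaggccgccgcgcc
Nkg7: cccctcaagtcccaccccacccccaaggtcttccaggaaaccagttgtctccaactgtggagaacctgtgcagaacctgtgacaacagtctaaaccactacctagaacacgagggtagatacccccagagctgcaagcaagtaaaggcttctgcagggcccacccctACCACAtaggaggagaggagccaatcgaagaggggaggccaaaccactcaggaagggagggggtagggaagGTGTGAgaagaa

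In the Gzmb sequence the RUNX letters began at -93 and -34 from the start site, the AP-1 letters at -58 and the T-box letters, read on the other strand, at -15. Nkg7 had the T-box letters at -12 and the RUNX letters, on the other strand, at -83. Tbx21 held only the ETS letters, on the other strand, at -244. Among the 9 genes with a promoter in the RefSeq table (Klrd1 was not matched), 6 held the RUNX letters and 4 the T-box letters in the 300 bases searched, which are the 250 upstream and those just past the start site. All matches of the 9 genes lay upstream. Over all 27025 genes of that table, in the same window, the shares were 18.9% and 16.4%. The ETS letters were found in 2 of the 9, Prf1 and Tbx21, against 10.7% of genes, and the AP-1 letters in Gzmb alone, against 8.97%. These are letter matches in short windows, and no binding was measured.

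The clearest difference was between young and old ovaries. All 10 genes had a higher mean CPM in Aged than in Control, and of the 7 tested, 2 were called higher: Gzmb and Tbx21. Of all genes tested, 5.0% were called higher and 11.1% in either direction. At an unadjusted p, 4 of the 7 passed, with Nkg7 and Klrd1 added, against 8.79% of all genes in that direction. The 7 log2 fold changes were all positive, as were 49.9% over all genes, and ran from 0.58 to 2.70 with a median of 1.24. The Aged and Control ovaries did not overlap for Gzmb, Prf1, Nkg7, Klrd1 and Tbx21, that is for 5 of 7 tested, against 11.8% of all genes. Gzmb, Prf1 and Klrd1 entered the fit largely through the Aged group, so that share is only a description. Gzma, Gzmk and Eomes, outside the fit, overlapped. With the oviduct-rich ovaries Control 33 and Aged 34 both left out, an alternative chosen after seeing the data, 0 of the 7 were called, with Gzmb at 2.60 (adjusted p = 0.0581) and Tbx21 at 1.05 (adjusted p = 0.131).

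**Figure D1:**
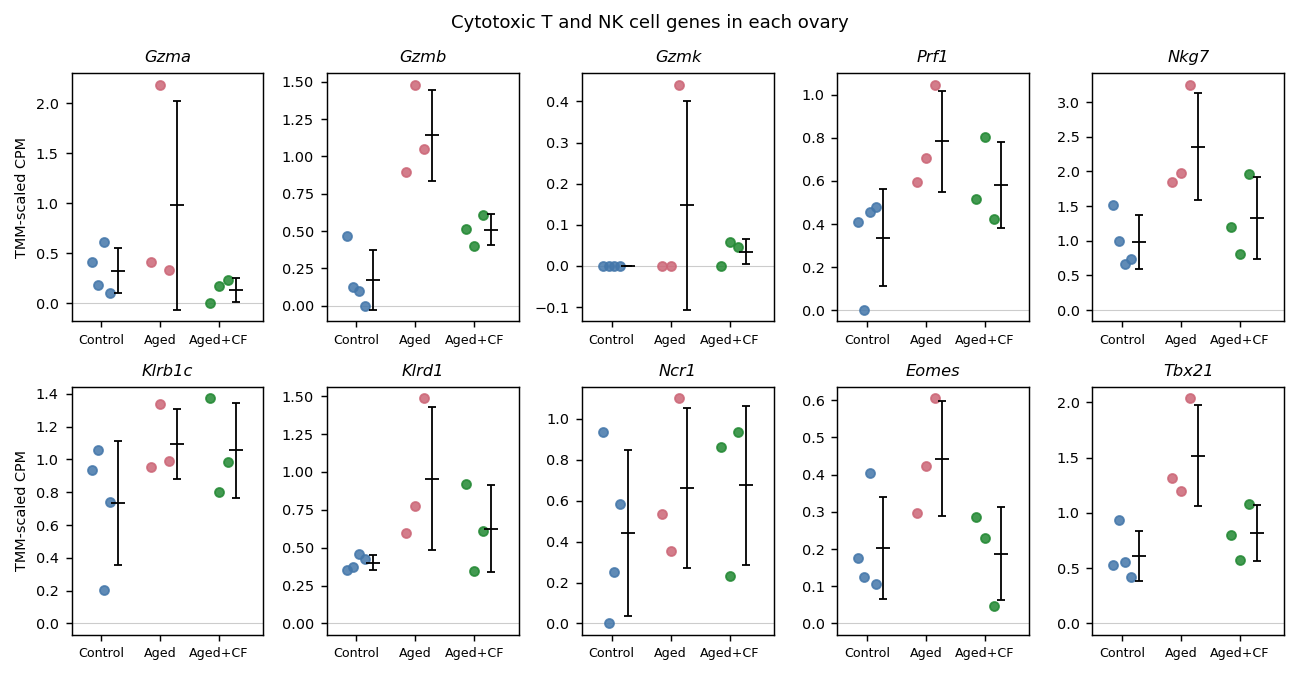
TMM-scaled CPM (y axis, linear, a separate scale for each gene) of the 10 genes in 4 Control, 3 Aged and 3 Aged+CF ovaries, with a point for each ovary and the mean ± SD in black beside them. For Gzmb the 3 Aged points lie between 0.895 and 1.48 CPM, above all other ovaries, and for Gzma and Gzmk a single Aged ovary carries the mean.

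Among the granule proteins, Gzmb had the largest difference with age. It encodes granzyme B, which activates caspases in the target cell (chromosome 14, 56258838 to 56262260, minus strand, GRCm38). Its values were 0.467, 0.125, 0.101 and 0 CPM in the Control ovaries 31, 32, 33 and 34, then 0.895, 1.48 and 1.05 CPM in the Aged ovaries 31, 33 and 34, and 0.516, 0.402 and 0.609 CPM in the Aged+CF ovaries 30, 32 and 34. Every Aged ovary stood above every other ovary, and the Aged+CF ovaries overlapped Control through Control 31. The means were 0.173 ± 0.203 CPM in Control (SD, n = 4) and 1.14 ± 0.304 CPM in Aged (SD, n = 3), from 12 and 55 counts in all. The fitted log2 fold change was 2.70 (SE 0.67, adjusted p = 0.0263). Leaving out 1 ovary at a time kept it between 2.28 and 3.82, but the adjusted p then ran up to 0.0739 and the call was lost without Control 32 or 33, Aged 31 or 33, or Aged+CF 30 or 34.

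Prf1 encodes perforin, the pore-forming protein without which granzymes do not reach their substrates (chromosome 10, 61297833 to 61304680). The 4 Control ovaries gave 0.409, 0, 0.456 and 0.477 CPM, the Aged ovaries 0.597, 0.705 and 1.05 CPM, and the Aged+CF ovaries 0.516, 0.804 and 0.422 CPM. The ranges of Control and Aged were apart, yet the log2 fold change of 1.19 (SE 0.63) had an adjusted p of 0.234. Control 32 had no Prf1 read.

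Gzma encodes granzyme A, a trypsin-like granzyme abundant in NK cells (chromosome 13, 113093825 to 113100981). It was under the filter, with 0.409, 0.187, 0.609 and 0.106 CPM in Control, 0.418, 2.19 and 0.331 CPM in Aged, and 0, 0.172 and 0.234 CPM in Aged+CF. Only Aged 33, with 31 counts, lay above the Control range. The Aged mean exceeded the Control mean by 0.651 CPM with all ovaries and by 0.0467 CPM without Aged 33, and the exact permutation p was 0.343 (two-sided, where 4 ovaries against 3 cannot go below 0.0571).

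Gzmk, the granzyme of memory-type CD8 T cells, was close to undetected (chromosome 13, 113171608 to 113225908). No read was counted in the 4 Control ovaries, where a count of 0 allows up to 0.0418 CPM over the group, and the floor covers counting error only. Aged 34 had 8 counts, or 0.441 CPM, and the other 2 Aged ovaries had none. Aged+CF 32 and 34 had 1 count each. The exact permutation p between Aged and Control was 0.857, and in the annotation Gzmk overlaps Esm1 on the opposite strand. Whether the counting used strand is not given in the sources used here.

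Nkg7 encodes a membrane protein of cytotoxic granules that is needed for their efficient release (chromosome 7, 43437073 to 43438249). Control ovaries had 1.52, 0.998, 0.659 and 0.742 CPM, Aged ovaries 1.85, 1.98 and 3.25 CPM, and Aged+CF ovaries 1.20, 0.804 and 1.97 CPM. All Aged values exceeded all Control values, and Aged+CF overlapped both groups. The log2 fold change with age was 1.27 (SE 0.40), and its adjusted p of 0.0574 just missed the threshold. Without Control 31, the highest of its group, the adjusted p was 0.0443.

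Of the receptors, Klrd1 encodes CD94, the partner of the NKG2 receptors that read the MHC molecule Qa-1 (chromosome 6, 129591782 to 129598775). It measured 0.350, 0.374, 0.456 and 0.424 CPM in Control, 0.597, 0.776 and 1.49 CPM in Aged, and 0.917, 0.345 and 0.609 CPM in Aged+CF. Control was narrow and lay below all Aged ovaries, and the log2 fold change was 1.24 (SE 0.42, adjusted p = 0.0747). Without Aged 34 it was 0.79.

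Klrb1c encodes NK1.1, the antigen by which NK cells of C57BL/6 mice are recognized (chromosome 6, 128778485 to 128789215). Its values overlapped in every comparison, with 0.934, 1.06, 0.203 and 0.742 CPM in Control, 0.954, 1.34 and 0.993 CPM in Aged, and 1.38, 0.804 and 0.984 CPM in Aged+CF. The log2 fold change with age was 0.58 (SE 0.46, adjusted p = 0.431). The gene overlaps Gm44511 on the same strand, so reads of the 2 may have been divided between them.

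Ncr1 encodes NKp46, an activating receptor confined largely to NK cells and related innate lymphocytes (chromosome 7, 4337724 to 4345164). It had 0.934, 0, 0.254 and 0.583 CPM in Control, 0.537, 0.353 and 1.10 CPM in Aged, and 0.860, 0.230 and 0.938 CPM in Aged+CF. The spread within Control alone covered most of the range of the other groups. Its log2 fold change with age, 0.59 (SE 0.83, adjusted p = 0.674), fell to 0.05 without Aged 34 and to -0.15 without both Aged 34 and Control 33.

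The NK cell receptors Klrb1c and Ncr1 thus had the smallest of the 7 fitted log2 fold changes with age. Other genes of NK cells had larger ones, among them Klrd1 at 1.24 and Prf1 at 1.19, neither of them called. Of 15 other NK and cytotoxic receptors tested, 9 were called higher in Aged and 0 lower, as described below. Some of the 15 also entered the fit largely through the older groups, so that count is only a description. The difference between Klrb1c and Ncr1 and the other genes was not tested.

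Of the transcription factors, Tbx21 was the gene called. It encodes T-bet, which drives interferon-gamma and granule genes in NK cells and T cells (chromosome 11, 97098071 to 97115331, minus strand). Control ovaries had 0.525, 0.935, 0.558 and 0.424 CPM, Aged ovaries 1.31, 1.20 and 2.04 CPM, and Aged+CF ovaries 0.803, 0.574 and 1.08 CPM. Aged lay above both other groups without overlap, and Aged+CF overlapped Control. The means were 0.611 ± 0.224 CPM in Control (SD, n = 4) and 1.52 ± 0.456 CPM in Aged (SD, n = 3), and the log2 fold change was 1.32 (SE 0.36, adjusted p = 0.0370). Over the fits that left out 1 ovary it ranged from 1.08 to 1.59 with an adjusted p of up to 0.0968, and the call was lost without Control 31, 33 or 34, Aged 31 or 34, or Aged+CF 30.

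Eomes encodes the second T-box factor, which maintains NK cells and memory CD8 T cells (chromosome 9, 118478212 to 118486132). It was under the filter, with 0.175, 0.125, 0.406 and 0.106 CPM in Control, 0.298, 0.423 and 0.607 CPM in Aged, and 0.287, 0.230 and 0.0469 CPM in Aged+CF. Control 32 and 34 had 2 counts each, and the groups overlapped through Control 33. The exact permutation p between Aged and Control was 0.114. An antisense gene, Gm33460, overlaps it.

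With the fat extract, no member was called. Aged+CF against Aged gave 1 call among all 18956 genes, or 0.00528%, and 0 of the 7 by edgeR's test. At an unadjusted p, where 4.05% of all genes were lower, Tbx21 alone passed, with a log2 fold change of -0.88 (SE 0.38, adjusted p = 0.294). The largest estimate was that of Gzmb, at -1.14 (SE 0.65, adjusted p = 0.402), followed after Tbx21 by Nkg7 at -0.82 (SE 0.42, adjusted p = 0.362) and Klrd1 at -0.62 (SE 0.44, adjusted p = 0.505). Prf1 gave -0.44, Klrb1c -0.05 and Ncr1 0.02. Of the 7, 6 were below 0, as were 52.6% of all genes, and the median was -0.62 against -0.02 over all genes.

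The Aged+CF ovaries lay below the Aged ovaries without overlap for Gzma, Gzmb, Eomes and Tbx21, of which only Gzmb and Tbx21 were among the 7 tested, against 8.39% of all genes tested. For Gzma the difference in mean CPM was -0.843 with all ovaries and -0.239 without Aged 33. The exact permutation p was 0.1 for Gzma and 0.1 for Eomes, the smallest that 3 ovaries against 3 can give. Gzmb averaged 0.509 ± 0.104 CPM in Aged+CF (SD, n = 3) and Tbx21 0.818 ± 0.252 CPM (SD, n = 3). The median of the 7 genes rested in part on Aged 34, without which it was -0.18.

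Against Control, Aged+CF had 0 of 7 genes called, with 0.179% of all genes called in either direction and 0 of 7 passing at an unadjusted p against 7.69%. All 7 log2 fold changes were positive, as were 45.9% over all genes, from 0.44 for Tbx21 to 1.56 for Gzmb (SE 0.71, adjusted p = 0.358). No member separated Aged+CF from Control. Both comparisons with the extract share ovaries with the comparison of age, so the 3 sets of values stand side by side and are not independent.

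**Figure D2:**
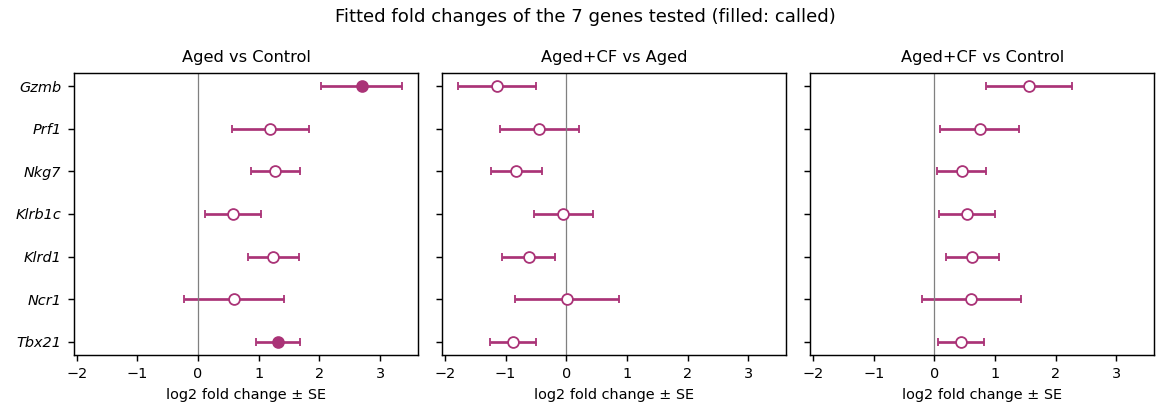
Fitted log2 fold changes with their SE (x axis) for the 7 genes tested, with a panel for each comparison and filled points for genes called. Only Gzmb (2.70) and Tbx21 (1.32) are filled, both for the comparison with age, and for the extract (Aged+CF vs Aged) the points run from -1.14 for Gzmb to 0.02 for Ncr1.

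Levels of different genes can be compared only per length, in FPKM. Nkg7 was the highest of the 10 in each group, with a mean of 0.632 ± 0.250 FPKM in Control (SD, n = 4), 1.41 ± 0.541 FPKM in Aged (SD, n = 3) and 0.835 ± 0.369 FPKM in Aged+CF (SD, n = 3). Only in Aged was its range clear of the next gene, Gzmb, at 0.744 ± 0.147 FPKM. In Control the order went on with Ncr1, Gzma, Tbx21, Klrb1c, Klrd1, Gzmb and Prf1, and each neighbour in that order overlapped the next. Gzmb was thus the seventh of the 10 in Control by its mean, at 0.125 FPKM, the second in Aged and the third in Aged+CF. Eomes and Gzmk were the lowest in all groups, with means of 0.0658 FPKM or less.

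**Figure D3:**
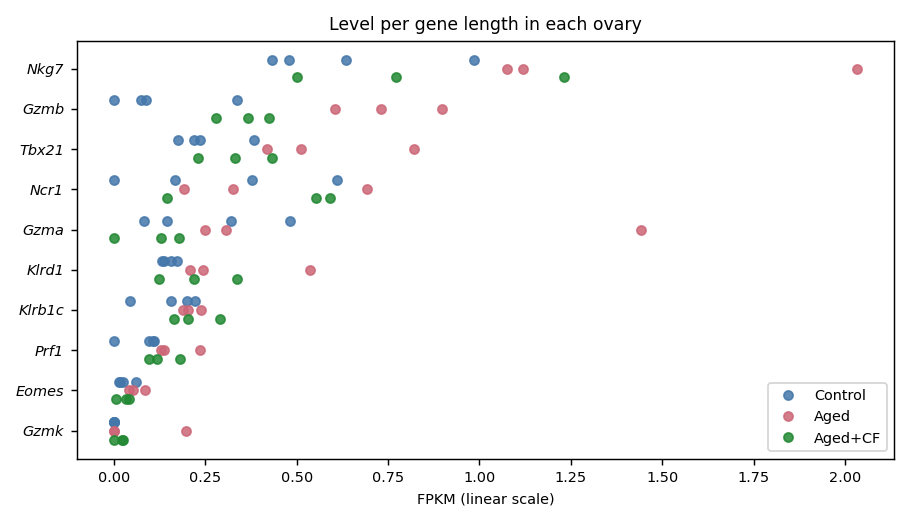
FPKM (x axis, linear) of the 10 genes in each ovary, colored by group and ordered by the mean over all 10 ovaries. Nkg7 reaches 2.03 FPKM in an Aged ovary, and the neighbouring genes of the order overlap.

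The ovary with the most reads of these genes was Aged 34. It was the highest of all 10 ovaries for 7 of the 10 genes, Aged 33 for Gzma and Gzmb, and Aged+CF 30 for Klrb1c. The summed level of the 10 genes was 5.72, 3.80, 3.70 and 3.60 CPM in Control, 7.46, 10.4 and 12.4 CPM in Aged, and 6.48, 4.42 and 6.94 CPM in Aged+CF. All Aged sums stood above all others, and the Aged mean was 2.40 times that of Control.

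Genes of leukocytes at large were higher in the same group. Beside the list counts that follow stands the share of all genes called with age, 5.0% higher and 11.1% in either direction. Of 6 pan-leukocyte genes, 6 were called higher in Aged than in Control, among them Ptprc, which encodes CD45 (15.5 ± 1.52 CPM in Control, SD, n = 4, and 37.0 ± 16.2 CPM in Aged, SD, n = 3, log2 fold change 1.25, adjusted p = 0.0114). Without Control 34, 3 of the 6 were called. Taken as a percent of the summed pan-leukocyte genes, the 10 genes came to 5.69, 3.64, 3.56 and 3.76% in Control, 4.50, 7.32 and 3.54% in Aged, with 4.64, 3.02 and 4.27% after the extract. The groups overlapped on that scale. Relative to the summed T cell markers they came to 15.7 to 22.95% in Control, 13.7 to 21.9% in Aged and 14.1 to 23.3% in Aged+CF, and Aged 34, the highest ovary in CPM, was the lowest of all 10. Relative to summed macrophage markers they came to 0.919 to 1.69% in Control, 1.65 to 2.24% in Aged and 1.03 to 1.50% in Aged+CF. The means there were 1.15% in Control and 1.88% in Aged. Relative to summed mast cell markers the means were 20.8% in Control and 11.5% in Aged, with overlap. The direction with age thus depended on the markers used as the base. The part of leukocyte content in the differences with age was not tested.

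T cell markers were called higher in Aged for 8 of 15 tested, with a median log2 fold change of 1.58, and summed to 17.6 to 24.9 CPM in Control and 43.5 to 90.4 CPM in Aged. Cd3e, a chain of the T cell receptor complex, had 0.939 ± 0.282 CPM in Control (SD, n = 4) and 4.59 ± 3.06 CPM in Aged (SD, n = 3; log2 fold change 2.29, adjusted p = 0.0107). Cd8a, the co-receptor of cytotoxic T cells, was under the filter at 0.401 CPM in Control, 0.814 CPM in Aged and 0.402 CPM in Aged+CF. Its values in the Aged ovaries 31, 33 and 34 were 0.239, 0.494 and 1.71 CPM. Only Aged 34 lay above the Control range of 0.125 to 0.700 CPM. Cd4 was not called (log2 fold change 0.94, adjusted p = 0.111). It had 3.76, 4.16 and 11.6 CPM in those Aged ovaries and 2.94 to 3.85 CPM in Control. B cell markers were called for 5 of 7 and macrophage markers for 3 of 10. Leaving out 1 ovary gave 5 to 9 T cell calls (5 without Control 31, 33 or 34 or Aged 34) and 1 to 6 B cell calls (1 without Control 32 or 34, and 3 without Control 31 or 33 or Aged 34). For macrophages it gave 0 to 6, with 0 without Control 31, 32 or 34, 1 without Aged 34 and 6 without Aged 31.

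Mast cells also carry granule proteases. Mast cell markers were called higher in Aged for 5 of 6 tested with a median log2 fold change of 3.61, and their sum was 258 CPM in Aged 34, against 41.4 and 88.4 CPM in the other Aged ovaries and 17.5 to 33.7 CPM in Control. Leaving out 1 ovary gave 1 to 5 mast cell calls, 1 without Control 32 and 2 without Control 31 or 34. Their part in the values of the granzymes was not tested. Neutrophil markers summed to 1.50 to 6.03 CPM in 8 ovaries, 16.6 CPM in Control 33 and 24.98 CPM in Aged 34, mostly from Ltf, which epithelia of the reproductive tract also make and which was the only one tested (log2 fold change 0.98, adjusted p = 0.514). S100a8, a defining neutrophil gene, lay between 0.101 and 0.496 CPM, and the part of these markers in the members' values was not tested. Erythroid genes were called higher in Aged for 5 of 5 tested, with a median log2 fold change of 2.29, and their part was not tested either.

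**Figure D4:**
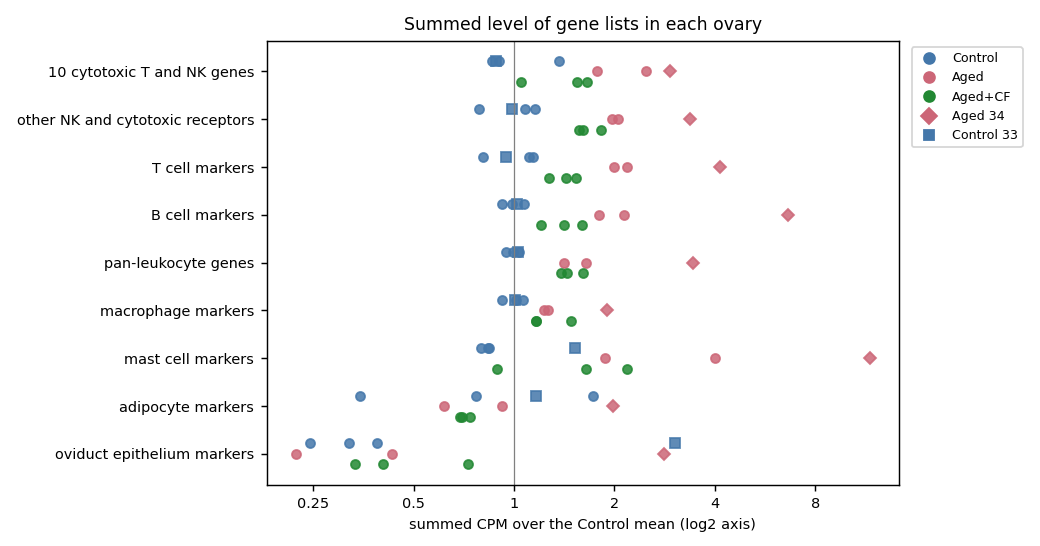
Summed CPM of gene lists in each ovary, divided by the Control mean of that list (x axis, log2 scale), with squares for Control 33 and diamonds for Aged 34. In Aged 34 the B cell, mast cell, T cell, pan-leukocyte and other NK and cytotoxic receptor lists lie farther above their Control means than the 10 genes do. The oviduct markers separate Control 33 and Aged 34 from the other 8 ovaries.

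The wider NK and cytotoxic receptors gave the most calls among the related lists. Of these, 34 were found and 15 of them tested. In all, 9 were called higher in Aged and 0 lower, with a median log2 fold change of 1.48. Leaving out 1 ovary gave 5 to 10 calls, the 5 without Control 34. Some of the 15 entered the fit largely through the older groups. Klrb1b, for example, had 0.187 to 0.355 CPM in Control, under the filter's 0.575 CPM, and 0.895 to 1.21 CPM in Aged. The count and median are therefore only a description. Il2rb, the receptor chain through which IL-2 and IL-15 act on NK and CD8 T cells, had 8.46, 7.04, 6.14 and 4.45 CPM in Control, 14.8, 17.8 and 14.2 CPM in Aged, with 8.31, 6.49 and 11.4 CPM after the extract. It did not overlap between Aged and either other group, and its log2 fold change with age was 1.26 (adjusted p = 0.0119). Klra2, of the Ly49 family, and Klrb1b, an inhibitory receptor next to Klrb1c, had log2 fold changes of 2.36 (adjusted p = 0.00739) and 1.84 (adjusted p = 0.00969). Ly49 and Klrb1 genes are near-identical families, so reads may have been split between their members. Whole-ovary RNA does not show which cells expressed these receptors, and a source outside NK cells was not tested.

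Klrk1, which encodes the activating receptor NKG2D, was not called (log2 fold change 1.35, adjusted p = 0.0594). Among its ligands and those of related receptors, H60b was lower in Aged, from 2.71 ± 0.378 CPM (SD, n = 4) to 0.528 ± 0.227 CPM (SD, n = 3; log2 fold change -2.36, adjusted p = 0.00949), and Raet1e likewise (-1.16, adjusted p = 0.0430). H2-T23, the gene of Qa-1 that CD94 reads, was higher (0.80, adjusted p = 0.0183), as was Cd48 (0.93, adjusted p = 0.0438). These made 2 higher and 2 lower of 8 tested, and 1 to 6 calls in all when 1 ovary was left out: 1 without Control 32 or 34, 2 without Control 31 or 33, Aged 34 or any Aged+CF ovary, and 6 without Aged 31.

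Adaptors that pass on the signal of NK receptors were called higher for 3 of 7: Fcer1g, Sh2d1b1 and Tyrobp, whose log2 fold changes were 1.0, 1.75 and 1.12. Tyrobp and Fcer1g are also used by macrophages and mast cells. Of 18 other granule and effector genes, 9 were tested and 1 was called, near the 11.1% of all genes called in either direction. That gene was Srgn, the proteoglycan core of granules in many leukocytes (log2 fold change 1.25, adjusted p = 0.00547). A further 5 granzyme genes, Gzmd, Gzme, Gzmf, Gzmg and Gzmn, had no count in any ovary. Chosen after their values were seen, Ccl5, a chemokine of cytotoxic cells, gave 1.43 (adjusted p = 0.119) with age, and Ifng had 5, 7 and 2 counts in the 3 groups in all.

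The machinery of granule release was mixed. Lamp1, Stx11 and Unc13d were called higher in Aged and Sytl2 lower, that is 4 of 12. Leaving out 1 ovary gave 1 to 5 (1 without Control 34 or Aged 31 or 33, and 2 without Control 31 or 32 or Aged+CF 30 or 34). Unc13d had 273, 275 and 42.3 CPM in the Aged ovaries 31, 33 and 34. Its value in Aged 34 lay within the Control range of 13.0 to 70.0 CPM. Several of these genes act in lysosomes or secretion of other cells too. Other transcription factors of cytotoxic lymphocytes were 2 higher and 2 lower of 14, and 2 in all without Control 32 or 34. Runx3, which with T-bet and Eomes directs the cytotoxic program but is also expressed outside lymphocytes, had 3.56, 1.43, 2.13 and 1.22 CPM in Control, 13.2, 26.9 and 14.998 CPM in Aged, and 7.91, 8.85 and 8.86 CPM in Aged+CF. Its 3 groups did not overlap, and the log2 fold change with age was 3.13 (adjusted p = 0.00358), with -1.10 in Aged+CF against Aged (adjusted p = 0.217). Prdm1 was higher with age (0.72, adjusted p = 0.0301), and Tcf7 (-0.69, adjusted p = 0.00855) and Tox2 (-1.09, adjusted p = 0.0289) were lower.

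Of the cytokines that drive these cells, 3 of 8 were tested and Il18 was called higher (log2 fold change 1.03, adjusted p = 0.00527). Genes of tissue residence and egress gave 3 calls of 8, Cxcr6, Cxcr3 and S1pr1, and chemokine genes 2 of 7, Cxcl16, the ligand of CXCR6, and Ccr2. The chemokine calls were 0 to 3 when 1 ovary was left out, 0 without Control 32 or 34 or Aged 34 and 1 without Control 31 or Aged 31. The calls of residence and egress were then 2 to 5, with 2 without Control 34 and 5 without Aged 33. In Aged+CF against Aged, none of the related or marker lists had a called gene in edgeR's test with all ovaries. Without Aged 34, 4 erythroid genes, 1 T cell marker, 1 gene of granule release and 1 oocyte marker were called there. Without Aged 33, 1 of the chemokine genes was called. At an unadjusted p, 8 of 15 T cell, 5 of 6 mast cell and 6 of 7 B cell markers were lower in Aged+CF than in Aged. So were 4 of 5 erythroid genes and 0 of 10 macrophage markers, against 4.05% of all genes. Aged 34 had a B cell sum of 53.9 CPM, against 17.4 and 14.6 CPM in Aged 31 and 33. Its mast cell sum was 258 CPM, against 41.4 and 88.4 CPM. The part of Aged 34 in these counts was not tested.

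The genes whose pattern over the 10 ovaries came closest to the mean profile of the 7 tested genes were Pglyrp2, Mndal, Atp6v0d2, Sec63, Gna14 and Zfp366. Gzma, Gzmk and Eomes had no part in that profile, and Gzmb, Prf1 and Klrd1 had entered the fit largely through the Aged group. Their root mean square distances on standardized log2 CPM ran from 0.253 to 0.346, against a median of 1.35 over 16743 genes of at least 1 CPM. Pglyrp2, the closest, averaged 0.691 ± 0.179 CPM in Control (SD, n = 4), 1.81 ± 0.898 CPM in Aged (SD, n = 3) and 1.22 ± 0.421 CPM in Aged+CF (SD, n = 3). The likeness is a description over 10 ovaries.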

How the data were processed

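Per the labels, RNA of whole ovaries was sequenced on Illumina instruments, and TopHat, Cufflinks 2.1.1 and the build GRCm38.p4 are named in the submitters' processing notes. For each gene the authors deposited unnormalized read counts and FPKM values, in a single table. In 100% of values above 0 the FPKM equals the count over a gene length and the column total, within 1%. The counting tool and strand setting are not given in the sources used here. The counts held no duplicated library among replicates.

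Counts were analyzed with edgeR 4.0 in R 4.3. Its low-count filter (minimum count 10) left 18956 genes, libraries were scaled by TMM, and a quasi-likelihood model with group means was fitted to all 10 ovaries. P-values were adjusted by Benjamini-Hochberg over all genes tested, and genes at a fold change of 1.5 and an adjusted p under 0.05 were called. P-values measure only the spread between these ovaries. Genes under the filter were compared by two-sided exact permutation tests of mean CPM. A floor is 3 counts. The fit was tested on simulated data.

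The 10 members and the lists were chosen with earlier results of these data known. Named were all members, up to 6 called genes of each list by smallest adjusted p or else the 2 highest, and 7 leukocyte genes. Also named were the 6 genes nearest to the mean profile of the members tested (log2 CPM, prior count 2). Of 13 receptor ligands, 9 were found in the table. Positions are from GENCODE M21 (GRCm38) and promoters from RefSeq (GRCm38.p6). Alternatives were other filters, scalings and tests, only the compared groups, unadjusted p, the replicate number as a block, each ovary left out, and, added after seeing the data, both oviduct-rich ovaries left out.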

Additional observations from a re-analysis of the deposited data

Results flagged for a closer look

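In Control, the group of 4 ovaries, 31 sets of values were examined for a sample far from the others by the gap to its neighbour over the range (Dixon's critical value 0.829), and 5 passed. Chance gives about 1 in 20. Prf1 passed at 0.856, where Control 32 had no read. The summed CPM of the 10 genes passed at 0.906, with Control 31 the highest. The other 3 were marker sums with Control 33 the highest: mast cell markers at 0.933, neutrophil markers at 0.871 and oviduct epithelium markers at 0.949. Without Control 31 the log2 fold change of Gzmb in Aged vs Control was 3.82, and without Control 33 it was 2.51 (adjusted p = 0.0659). The part of these ovaries in the members' values beyond those fits was not tested.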

How the results depend on the processing

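With 2 members called in Aged vs Control, the count was 4 at an unadjusted p, 1 with no filter (Gzmb), 1 with a stricter filter of 1 CPM in 3 ovaries (Tbx21, where fewer members were tested), 1 with library size only (Gzmb), and 0 with only the 2 groups compared or without both oviduct-rich ovaries. It was 2 with DESeq2's size factors and 3 with DESeq2's Wald test, which added Nkg7. Leaving out 1 ovary gave 0 to 2. Gzmb and Tbx21 kept a positive fold change in each of these fits that tested them. In Aged+CF vs Aged the count was 1 at an unadjusted p and 0 otherwise, and DESeq2 gave the members no adjusted p there. Scaling by library size alone shifted the median of all genes in Aged vs Control by -0.13 on the log2 scale, and 28.5% of its calls were higher, against 45.2%.

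The replicate number used as a block left 0 members called in Aged vs Control, and 80, 0 and 9 genes of all called in the 3 comparisons in the order used above. Same-numbered ovaries are different animals, and the correlations of their deviations ran from -0.18 to 0.15, so the numbers were not taken as pairs.

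Over all genes, the 2096, 1 and 34 calls became 3456, 1509 and 1457 at an unadjusted p. In Aged+CF vs Aged, 2 genes were called with no filter, 2 with library size only, 2 with only the groups compared, 441 with DESeq2's Wald test and 289 without both oviduct-rich ovaries. In Aged+CF vs Control these were 528 with DESeq2's Wald test, 487 with only the groups compared and 159 without both oviduct-rich ovaries. Leaving out 1 ovary gave 1081 to 3112, 1 to 556 and 7 to 348 calls, the highest of each without Aged 34.

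Of 363 fold changes of members recomputed, 331 kept their direction and side of the threshold, 20 lost their call, 2 gained one and 10 reversed. The reversed log2 values lay near 0: Ncr1 in Aged vs Control at -0.15 without both oviduct-rich ovaries, and in Aged+CF vs Aged Prf1 at 0.11 with the block, Klrb1c at 0.051 with library size only and Ncr1 at -0.0033 with only the groups compared. Leaving out 1 ovary took Klrb1c from -0.30 to 0.11 and Ncr1 from -0.31 to 0.58 in Aged+CF vs Aged. Under the filter, the difference in mean CPM of Gzmk ran from -0.186 to 0.0348 in Aged+CF vs Aged, and that of Eomes from -0.0646 to 0.0553 in Aged+CF vs Control. The causes were not tested. Most values of members were under 30 counts per ovary, and the smallest fold change that such counts allow to be called was not computed.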
